A study of Mus with 15 samples.

Results

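The regions described here are stretches of thalamic chromatin that carried monoubiquitinated histone H2A (H2AK119ub, here H2Aub) and that lay far from any protein-coding gene. To find them, the pooled peaks of 9 H2Aub lists were merged wherever they touched. A merged region was kept when it was narrower than 5000 bp, lay on chromosomes 1 to 19, had at least 1 base covered in 2 to 6 of the 9 lists, and lay wholly more than 10 kb outside every protein-coding gene body of the mm10 mouse genome. The rule gave 6332 intergenic regions, 8.70% of the 72813 merged regions of the 9 lists and 36.1% of the 17540 regions that met the same limits of width and number of lists. Of the other regions within those limits, 7644 lay wholly inside coding genes and 3564 lay at gene edges, meaning that they crossed a gene end or lay within 10 kb of one. These 7644 and 3564 regions serve below as the comparison sets.

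H2Aub was profiled by ChIPmentation, in which immunoprecipitated chromatin is tagged with sequencing adapters by a transposase on the beads. The study compared thalami of Maged1 Loxp mice, labelled Maged1 WT (WT), with Maged1cKO mice (cKO), in which Cre driven by the Vglut2 promoter inactivates Maged1, so that the deletion concerns glutamatergic neurons while the tissue also holds other cells. All mice were 2 to 4 months old and were first given saline for 3 days. Intraperitoneal injections of cocaine at 20 mg/kg, or of saline again, followed for 5 days. Each library came from pooled thalami, 3 to 4 per sample by the labels and as few as 2 by the methods of the study. WT mice gave 3 cocaine and 3 saline libraries, cKO mice gave 2 and 3, and p-values below measure only the spread between these pools. Peak lists hold no expression values, so neither the tissue nor the loss of Maged1 could be checked against marker genes.

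H2AK119 monoubiquitination is written by Polycomb repressive complex 1 (PRC1) through its RING1 ubiquitin ligases and is linked to gene repression. In vertebrate cells the mark is densest over the promoters of silent developmental regulators such as homeobox, T-box and forkhead genes, many of which sit in long gene-poor stretches of DNA. Away from such promoters it is spread thinly over the genome, and much of that thin layer lies between genes.

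The replicates numbered 1 of cKO cocaine and cKO saline stood apart from the other libraries. Their lists held 54201 and 79872 peaks on chromosomes 1 to 19, against 7235 to 25972 in the 9 lists the rule used. They took no part in choosing the regions, which leaves 1 cKO cocaine and 2 cKO saline lists behind the rule. The study states a minimum depth that all samples passed, but no read numbers come with the lists, so the depth of each library is unknown, and longer lists from deeper sequencing cannot be told apart from more marked chromatin.

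The regions were selected on the number of lists with a peak, the width and the distance from genes, so these are given as a description. Most regions were found in few lists. At the base with the most lists, 3996 regions (63.1%) had 2 lists, 1356 had 3, 579 had 4, 267 had 5 and 134 had 6. The share with only 2 lists was 57.5% among regions inside coding genes and 51.6% among regions at gene edges. Counting any peak in the merged region and not only the most covered base, 1785 of the 6332 regions were touched by more lists than that, up to 9. The next step up, with 7 lists, held 78 intergenic regions of any width.

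Intergenic regions were narrow. Their median width was 662 bp (quartiles 436 to 1020 bp, range 105 to 4919 bp), and together they covered 5.24 Mb. The narrowest region that the width limit turned away measured 5227 bp. Median width was 531 bp for regions with 2 lists, 848.5 bp with 3, 1189 bp with 4, 1458 bp with 5 and 2006.5 bp with 6. A merged region spans all of its touching peaks, so peaks from more lists widen it by construction, and this rise is a description. The fold enrichment of a region over input, taken as the mean over the lists with a peak of each list's highest peak there, had a median of 3.46 (quartiles 3.33 to 3.602, range 1.58 to 8.60). Its median rose a little with the number of lists, from 3.44 at 2 lists to 3.54 at 4 and 3.67 at 6, the last above the upper quartile of all the regions. Only 6 regions had a mean fold above 5.

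The lists contributed unequally. A peak in an intergenic region was present for 3586, 3275 and 2347 regions in WT cocaine replicates 1 to 3 and for 2865, 926 and 1667 in WT saline replicates 1 to 3. The cKO cocaine list (replicate 2) had 2372 and the cKO saline lists (replicates 2 and 3) had 1457 and 607. The WT cocaine lists averaged 3069 ± 645 regions (SD, n = 3) and the WT saline lists 1819 ± 978 (SD, n = 3), and the groups overlapped because WT saline replicate 1 had more regions than WT cocaine replicate 3. The count of regions followed the length of the list, as the plot of regions per list shows. Peaks in intergenic regions made up 17.7%, 13.4% and 15.8% of the WT cocaine lists, 13.1%, 10.9% and 14.5% of the WT saline lists, 14.4% of the cKO cocaine list, and 14.2% and 8.54% of the cKO saline lists.

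**Figure D1:**
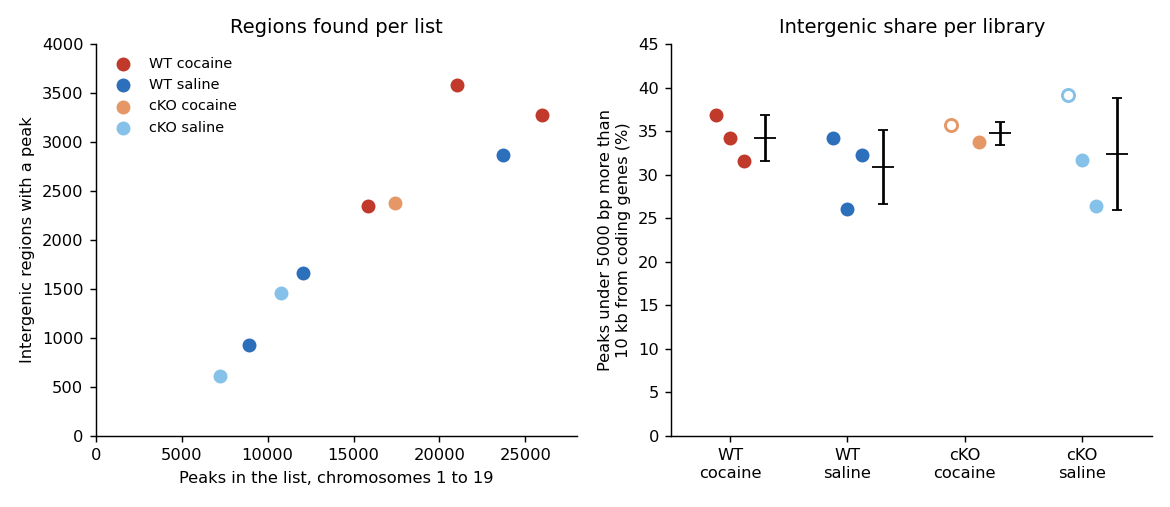
Left, number of intergenic regions with a peak (y axis) against the number of peaks in the list (x axis), 1 point for each of the 9 lists used by the rule. Right, percent of peaks under 5000 bp that lay more than 10 kb outside coding genes, 1 point per library, with group mean and SD in black and the cKO replicates numbered 1 as open points. Short lists held few regions, from 607 in cKO saline replicate 3, and the points of the groups in the right panel overlap.

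Whether cocaine or the loss of Maged1 moved H2Aub towards intergenic DNA was asked of all peaks narrower than 5000 bp, without the rule on the number of lists. The intergenic share of these peaks, meaning peaks wholly more than 10 kb outside coding genes, was 36.8%, 34.2% and 31.6% in WT cocaine replicates 1 to 3. It was 34.2%, 26.1% and 32.2% in WT saline replicates 1 to 3. The lowest WT saline list stood well below the rest, while the other WT saline lists fell inside the WT cocaine range. The mean difference was 3.35 percentage points (SE 2.88), which was within the spread between libraries (p = 0.50 in a two-sided exact permutation test whose lowest attainable p was 0.10, and 0.714 after adjustment over 10 tests). Without WT saline replicate 2 it was 0.974 points.

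In cKO mice the share was 35.6% and 33.8% in the cocaine libraries and 39.1%, 31.7% and 26.4% in the saline libraries. The saline libraries spanned the cocaine libraries on both sides. Cocaine exceeded saline by 2.33 points (SE 3.82, p = 0.80 in the same exact permutation test, lowest attainable 0.20, adjusted p = 1.00). The difference turned to -0.687 without cKO saline replicate 3. The cKO saline mean was 1.54 points above WT saline (SE 4.44, exact permutation p = 0.90, adjusted p = 1.00), and turned to -1.83 without cKO saline replicate 1 and to -0.835 without WT saline replicate 2. The cKO cocaine mean was 0.520 points above WT cocaine (SE 1.78, exact permutation p = 1.00, adjusted p = 1.00) and turned to -0.405 without cKO cocaine replicate 1 and to -0.804 without WT cocaine replicate 3. The response to cocaine differed by 1.02 points between genotypes (exact permutation over 200 arrangements, p = 0.88, lowest attainable 0.01). No genotype or treatment difference in the intergenic share was detectable with these libraries, and the 4 group comparisons could not have given a p under 0.10.

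The intergenic share moved with the length of the list. Over the 9 libraries the share and the number of peaks had a Pearson r of 0.825 (exact permutation p = 0.00277) and a Spearman rho of 0.867 (exact permutation p = 0.00451, 1 relation tested). Without the 2 libraries farthest from the median number of peaks r was 0.806. The shortest lists, WT saline replicate 2 and cKO saline replicate 3, had the lowest intergenic shares, 26.1% and 26.4%. With the 7235 peaks of lowest q in each library the differences were 1.63 points for cocaine against saline in WT and 3.49 in cKO, and 3.64 and 5.50 for cKO against WT under saline and cocaine (exact permutation p = 0.50, 0.60, 0.50 and 0.40).

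Intergenic peaks of the WT cocaine and WT saline libraries overlapped in height. Their median fold enrichment was 3.11, 3.47 and 3.56 in WT cocaine replicates 1 to 3 and 3.47, 3.89 and 3.51 in WT saline replicates 1 to 3. The log2 difference was -0.0995 (SE 0.0793, ratio 0.933, exact permutation p = 0.50, lowest attainable 0.10, adjusted p = 0.714). It was -0.0406 without WT cocaine replicate 1, -0.0476 without WT saline replicate 2 and -0.0491 with equal numbers of peaks. Median widths were 386, 271 and 287 bp in WT cocaine and 205.5, 216 and 299 bp in WT saline. WT saline replicates 1 and 2 were the narrowest, and replicate 3 reached into the WT cocaine range. The log2 difference was 0.39 (SE 0.23, ratio 1.31, exact permutation p = 0.30, lowest attainable 0.10, adjusted p = 0.60), and 0.24 without WT cocaine replicate 1.

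How each region was spread over the WT lists is a description, since these lists chose the regions. More WT cocaine than WT saline lists had a peak in 3362 regions (53.1%), as many of both in 1816 (28.7%) and fewer in 1154 (18.2%). Over all 17540 regions of the same width and number of lists, these shares were 53.7%, 28.8% and 17.5%, so the intergenic regions leaned to WT cocaine lists about as much as the rest. A peak in all 3 WT cocaine and no WT saline lists was found in 221 regions (3.49%), next to a background of 3.76% over the 17540 regions. The converse held for 23 regions (0.363%), next to 0.291%. With the same number of peaks taken from each library, 1939 intergenic regions were left, of which 31 (1.599%) had the first pattern, next to 1.99% over all 6535 regions of that setting, and 18 (0.928%) the second, next to 0.704%.

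**Figure D2:**
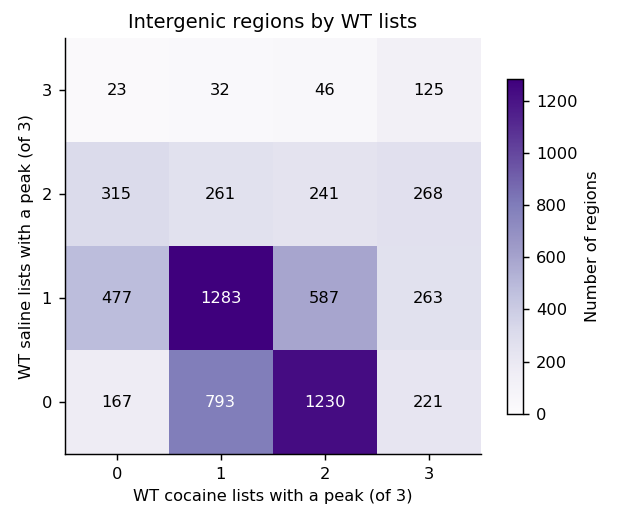
Number of intergenic regions by how many of the 3 WT cocaine lists (x axis) and of the 3 WT saline lists (y axis) had a peak in the region, with darker cells for higher numbers. The fullest cells are 1 list of each treatment (1283 regions) and 2 cocaine lists with no saline list (1230 regions).

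Among the 221 regions, the highest mean fold belonged to a 935 bp region at chr14:24901213-24902147, between Rps24, a ribosomal protein gene, and Zmiz1, a transcriptional coregulator. Its fold enrichment was 3.43, 4.86 and 3.68 in the WT cocaine lists, with no peak in the other 8 lists. A region at chr16:97323643-97324294, 32.4 kb from the protease gene Bace2 and 152.5 kb from Dscam, a neuronal cell adhesion gene, had folds of 4.04, 3.76 and 4.14 in the WT cocaine lists and 3.59 in cKO cocaine replicate 2. It had no peak in cKO cocaine replicate 1 or in any saline list. A 373 bp region at chr14:48852183-48852555, 159.4 kb from the exocyst gene Exoc5 and 184.5 kb from the homeobox gene Otx2, had 3.18, 4.50 and 3.64 in the WT cocaine lists and no other peak. No base of it was covered in all 3 of these lists. Of the 221 regions, 47 had only 2 lists at their most covered base. A list without a peak is one in which no peak passed the caller's threshold there, which does not show that the mark was absent.

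Of the 23 converse regions, the one with the highest mean fold lay at chr4:101307430-101307737, 42.1 kb from Jak1, a cytokine receptor kinase. Its folds were 3.72, 4.16 and 4.43 in the WT saline lists and no other list had a peak. A 419 bp region at chr5:111956033-111956451 between Mn1 and Cryba4 had 3.38, 4.41 and 3.68 in the WT saline lists and no other peak. A 1064 bp region at chr16:29839638-29840701, 176.5 kb from Opa1 and 224.7 kb from the Notch effector Hes1, had 3.82, 3.86 and 3.61 in the WT saline lists and also a peak in all 3 cKO lists used by the rule.

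Between genotypes, 3026 intergenic regions (47.8%) had peaks in WT lists only, 167 (2.64%) in cKO lists only and 517 (8.16%) in all 4 groups. The rule used 6 WT and 3 cKO lists, which by itself gives WT more chances of a peak. Over the 17540 regions the same shares were 45.2%, 2.22% and 10.8%. Within cKO, 1431 regions (22.6%) had a peak in cKO cocaine replicate 2 and in neither cKO saline replicate 2 nor 3, next to a background of 23.1%. A peak in both of those saline lists and none in that cocaine list was found in 58 regions (0.916%), next to 1.01%. With a single cKO cocaine list these counts have no replicate check.

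Compared within each library, peaks of intergenic regions were about as high as peaks of the other regions. The median fold enrichment of their peaks was above that of regions inside coding genes in 9 of 9 libraries, by a mean log2 difference of 0.0123 (SE 0.0023, ratio 1.009, p = 0.00391 by a two-sided exact sign-flip permutation test, the lowest it can give, adjusted p = 0.0195). It was below that of regions at gene edges in 9 of 9 libraries, by a log2 difference of -0.00712 (SE 0.0021, ratio 0.995, exact permutation p = 0.00391, adjusted p = 0.0195). Both differences passed the test and both were under 1% in size. The number of lists chose the regions, however, and it differed between the sets. Among regions with exactly 2 lists the difference from regions inside genes was 0.014 (exact permutation p = 0.00391). The difference from gene edges was then -0.0019 (exact permutation p = 0.684). The latter was -0.0022 with peaks at q of at most 0.05 (exact permutation p = 0.449). It turned to 0.00553 at q of at most 0.01 and to 0.00272 with equal numbers of peaks.

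The widths of these peaks are given without a test, since width and the number of lists chose the regions. Peaks of intergenic regions were narrower than peaks of regions at gene edges in 8 of 9 libraries, with a mean log2 difference of -0.13 (SE 0.031, ratio 0.914), and narrower than peaks of regions inside coding genes in 7 of 9 libraries, with a difference of -0.0507 (SE 0.024, ratio 0.965). Among regions with exactly 2 lists the differences were 0.0161 and 0.00258.

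The only lists that the rule did not use were the cKO replicates numbered 1, with 1 library per group and therefore no test between groups. In cKO cocaine replicate 1, 1857 of the 6332 intergenic regions had a peak, 29.3% (95% exact binomial interval 28.2 to 30.5%), next to a background of 37.0% over the 17540 regions. In cKO saline replicate 1 the number was 1854, also 29.3%, next to 35.2%. With the same number of peaks taken from every library, which shortens these long lists most, the shares were 1.75% and 3.97%. No background over all regions was counted in that setting, so these 2 shares cannot be set against one. Regions inside coding genes were found again in 40.8% and 37.7% of cases and regions at gene edges in 42.5% and 40.5%. A peak in both lists was found for 1023 intergenic regions (16.2%), next to 23.0%. The intervals cover counting error only.

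The share found again was higher for regions with more lists. It was 20.8% in cKO cocaine replicate 1 and 21.2% in cKO saline replicate 1 for intergenic regions with 2 lists, 48.9% and 48.7% with 4 lists, and 79.9% and 74.6% with 6 lists. For comparison, intergenic regions seen in a single list were found again in 7.69% and 9.13% of cases. At the same number of lists, intergenic regions had lower shares than regions inside genes. With 2 lists, where the median widths were 531 and 530 bp, the shares in cKO cocaine replicate 1 were 20.8% (interval 19.6 to 22.1%) and 27.2% (25.9 to 28.6%). In cKO saline replicate 1 they were 21.2% (19.9 to 22.5%) and 24.9% (23.6 to 26.2%). With 6 lists the intervals overlapped in both libraries.

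**Figure D3:**
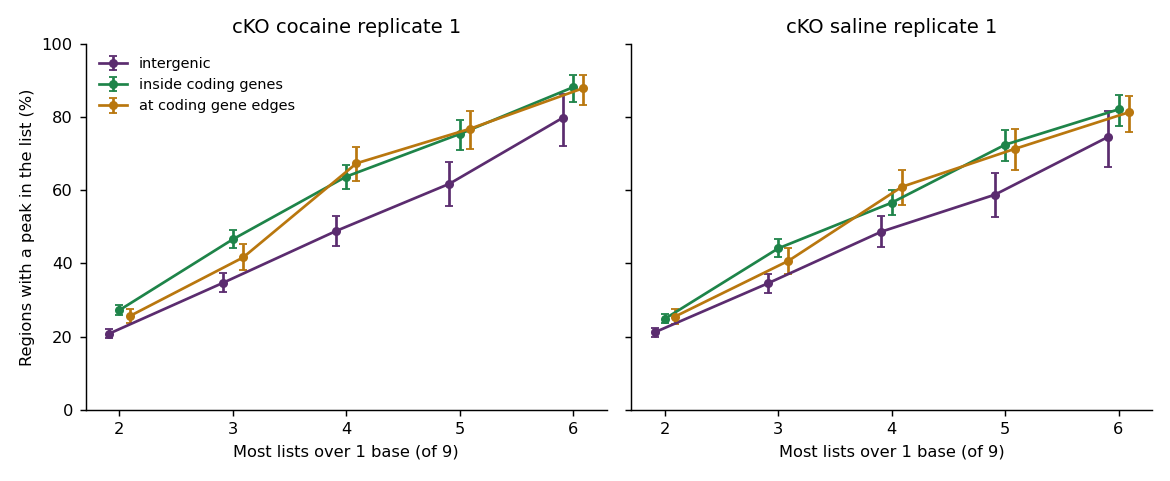
Percent of regions with a peak in a list that the rule did not use (y axis) against the most lists that covered 1 base among the 9 used (x axis), for intergenic regions, regions inside coding genes and regions at gene edges, with 95% exact binomial intervals. The intergenic line runs from 20.8% to 79.9% on the left and from 21.2% to 74.6% on the right, below the other lines.

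Most intergenic regions that returned in these lists did so at ordinary height, with a median fold of 3.63 and 3.73 for peaks in intergenic regions and 3.97 and 4.03 for the whole lists. A few were very high. The region at chr9:63092677-63093320, 44.8 kb from Skor1, a neuronal transcriptional corepressor, had folds of 26.3 and 24.0 in cKO cocaine and cKO saline replicate 1. In the other lists it was called in WT cocaine replicate 1 (3.25) and cKO saline replicate 3 (4.45) only. A region at chr5:111501122-111501654, 44.1 kb from Mn1, had 23.6 and 26.2, against 3.05 in WT cocaine replicate 1 and 3.76 in cKO saline replicate 3. A region at chr7:145102506-145104807, 76.8 kb from the ion channel gene Tpcn2 and 162.7 kb from the cell cycle gene Ccnd1, had 20.0 and 17.6, and was also called in 7 of the 9 other lists at 3.15 to 3.98. The regions were picked for their folds in these lists, so the gap to the other lists is a description.

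Among the others of the 10 regions with the highest folds in both of those lists, a 992 bp region at chr5:119623215-119624206 overlapped Tbx3os1, a non-coding gene next to the T-box gene Tbx3, and had folds of 18.1 and 16.1, against 4.36 and 3.38 in WT saline replicates 2 and 3. A region at chr7:49654177-49654599, 17.3 kb from the homeobox gene Dbx1, had 18.7 and 15.5, against 3.15 in WT saline replicate 1 and 3.30 in cKO saline replicate 2. A region at chr11:45794118-45794452, 786 kb from Ebf1 and 57.5 kb from Clint1, had 18.7 and 15.5, against 3.58 and 3.45 in WT cocaine replicates 2 and 3. The remaining regions of the 10 had folds of 15.3 to 23.2 in those lists and lay between Tle3 and Rplp1, Mn1 and Cryba4, Rybp and Shq1, and Acaa2 and Lipg.

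The DNA that the rule could reach, counted as every base more than 10 kb outside coding genes between the first and last annotated gene of each chromosome, came to 1221 Mb, and held 5.19 regions per Mb. Coding gene bodies held 7.77 regions of the same width and number of lists per Mb. The median distance of an intergenic region from the nearest coding gene was 49.1 kb (quartiles 23.4 to 108 kb), and the farthest lay 1035 kb away. The nearest lay 10.003 kb away, and the farthest region that the distance limit turned away lay at 9.979 kb.

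Density was lower in bands farther from genes. It was 9.62 regions per Mb at 10 to 20 kb from coding genes, 9.04 at 20 to 50 kb, 7.58 at 50 to 100 kb and 5.75 at 100 to 200 kb. It was 2.08 at 200 to 500 kb and 0.0714 beyond 500 kb, where 16 regions lay in 224 Mb, 18.4% of the space. Intergenic regions seen in a single list followed the same course, from 34.2 to 0.691 per Mb. The number of lists did not follow distance, since 36.8% of the regions at 10 to 20 kb and 35.4% of those at 200 to 500 kb had 3 or more lists. The space includes bases that cannot be mapped uniquely or are not sequenced, and their part in the low density far from genes was not tested.

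**Figure D4:**
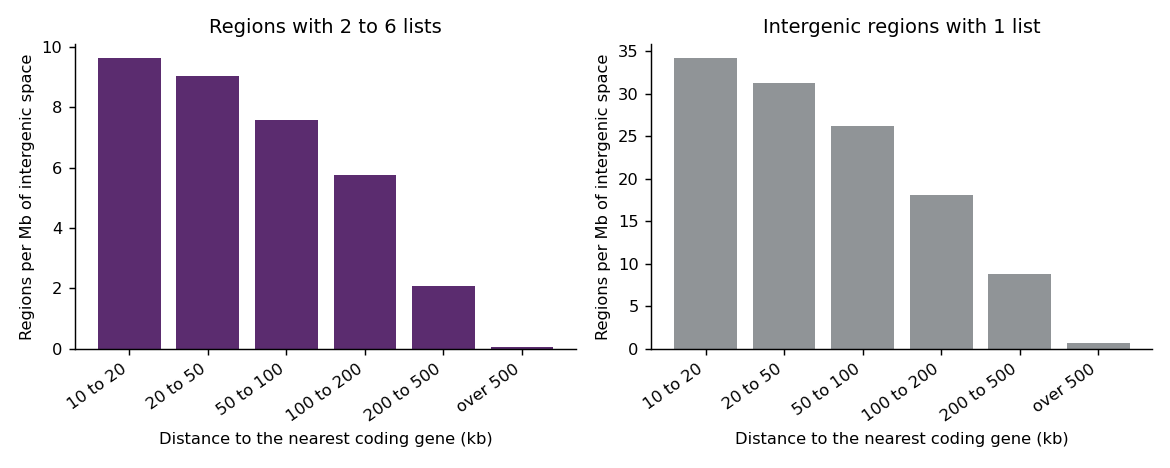
Regions per Mb of intergenic space (y axes, linear and on different scales) in 6 bands of distance to the nearest coding gene (x axis), for the 6332 intergenic regions with 2 to 6 lists on the left and for the 22204 intergenic regions seen in 1 list on the right. Both series are highest at 10 to 20 kb, at 9.62 and 34.2 per Mb, and lowest beyond 500 kb.

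Chromosomes differed in density. Chromosome 5 held 747 regions at 10.5 per Mb, followed by chromosome 11 at 9.38, chromosome 9 at 8.77 and chromosome 2 at 8.02. Chromosome 3 had the fewest per Mb, 1.57, and chromosome 18 had 2.17. Across the 19 chromosomes, density had a Pearson r of 0.580 with the number of coding genes per Mb and of 0.942 with the density of single-list intergenic regions, which share their libraries with the regions counted. These are descriptions across chromosomes and not tests.

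The regions were gathered in clusters. Another intergenic region lay within 5 kb of 4036 of them (63.7%), and the median distance to the nearest other one was 1.96 kb. Of 8338 gaps between neighbouring coding genes with room for a region, 1420 (17.0%) held at least 1, and 590 of these held just 1. In contrast, the 142 gaps with 10 or more held 3175 regions (50.1%) in 4.04% of the space. Since these gaps were picked for their counts, the shares are a description.

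The fullest gap, 789.5 kb between Mn1, a transcriptional coregulator, and Cryba4, a lens crystallin (chr5:111457031-112246491), held 123 regions, 58 of them with 3 or more lists. A peak was present in 80, 76 and 46 of the 123 in WT cocaine replicates 1 to 3 and in 57, 23 and 36 in WT saline replicates 1 to 3. It was present in 37 in cKO cocaine replicate 2 and in 30 and 16 in cKO saline replicates 2 and 3. The WT groups overlapped, and the order of the lists was close to that of their lengths. Peaks were also found in 40 and 47 of the 123 in the cKO cocaine and cKO saline lists that the rule did not use.

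The second gap, between the Mediator subunit gene Med13l and Tbx3 (chr5:118765439-119670533), held 113 regions. They were covered in 63, 62 and 38 cases in the WT cocaine lists and in 49, 18 and 33 in the WT saline lists, which again overlapped. The third lay between Prok2, a secreted signal, and Rybp, itself a subunit of variant PRC1 complexes (chr6:99726393-100228564). It held 99 regions, with 76, 62 and 53 covered in the WT cocaine lists and 63, 17 and 43 in the WT saline lists. On the other side of Rybp, the gap up to Shq1 held a further 55.

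Tle3, a Groucho family corepressor, was likewise flanked on both sides, with 79 regions between Uaca and Tle3 and 79 between Tle3 and Rplp1. In the Uaca gap the WT cocaine lists covered 54, 50 and 38 regions and the WT saline lists 32, 17 and 22, without overlap. Such a gap between WT groups, with cocaine higher, was found in 30 of the 142 gaps with 10 or more regions (21.1%), and with saline higher in 0, and these counts come from the lists that chose the regions. The WT cocaine lists also held more regions in general, a mean of 3069 against 1819 in WT saline. The counts per gap were not repeated with equal numbers of peaks. In the Rplp1 gap the counts were 42, 45 and 35 against 39, 13 and 19, with overlap. The gap between the mitochondrial fusion gene Opa1 and Hes1 held 70 regions, the gap next to the forkhead gene Foxl1 held 65, and the gap between Rps24 and Zmiz1 held 61. The gap between Septin9 and Tnrc6c, a gene of microRNA silencing, held 55. Density in these 10 gaps ran from 64.8 regions per Mb (Rps24 and Zmiz1) to 208 per Mb (Rybp and Shq1), against 5.19 over the whole space.

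The coding genes on either side of each region were compared with 5 gene lists. A gene of the list of homeobox and other developmental transcription factors flanked 1249 regions (19.7%), while gaps next to these genes made up 7.08% of the space, which gave 14.4 regions per Mb. Of the 224 genes of this list found in the annotation, 149 flanked at least 1 region. Among intergenic regions seen in 1 list the share was 15.2%. The same held without the rule on the number of lists. Of all narrow intergenic peaks, 17.9 to 23.6% were flanked by such a gene in each of the 9 libraries (median 19.5%), and 13.1% and 12.01% in cKO cocaine and cKO saline replicate 1. The share did not separate the WT groups, with 17.9%, 18.7% and 19.4% in WT cocaine and 18.2%, 23.6% and 20.5% in WT saline.

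Genes of neuronal function lay on the other side of the comparison. Adhesion and axon guidance genes flanked 86 regions (1.36%) in 14.6% of the space, 0.483 per Mb. Genes of neurotransmitter receptors, transporters and ion channels flanked 63 (0.995%) in 4.15% of the space, 1.24 per Mb. Olfactory and vomeronasal receptor genes, which lie in clusters of close copies, flanked 24 (0.379%) in 2.51% of the space. Morphogens and secreted signals flanked 84 (1.33%) in 1.12% of the space, 6.16 per Mb. The 97 adhesion and guidance genes bordered 178 Mb of space, and the 224 developmental transcription factors 86.5 Mb. Density fell with distance from coding genes, and the part of gap length in these contrasts was not tested. In cKO cocaine and cKO saline replicate 1, 4.76% and 5.68% of narrow intergenic peaks were flanked by an adhesion or guidance gene, against 1.35 to 2.43% in the other 9 libraries.

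**Figure D5:**
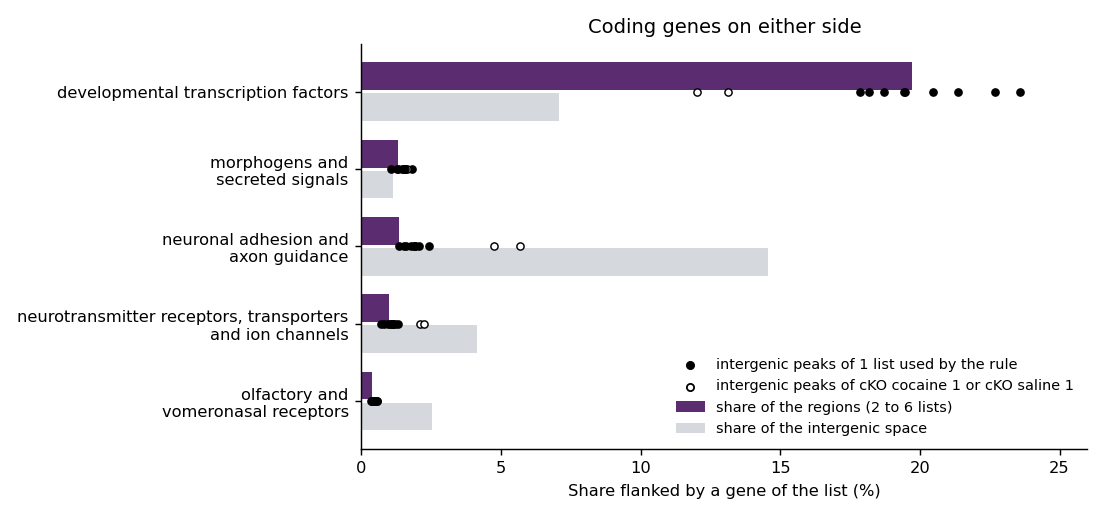
Percent flanked by a gene of each of 5 lists (x axis), for the 6332 intergenic regions (purple bars), for the intergenic space (grey bars), and for the narrow intergenic peaks of each library without the rule on the number of lists (points, open for the cKO replicates numbered 1). Developmental transcription factors flank 19.7% of the regions and 7.08% of the space, and adhesion and guidance genes flank 1.36% of the regions and 14.6% of the space.

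Tbx3, a T-box factor of limb, heart and hypothalamic development, flanked the most regions of any listed gene, 124, of which 49 had 3 or more lists. Next came the forkhead gene Foxl1 with 65 and the Iroquois homeobox genes Irx5 and Irx3 with 50 and 45. Foxf1, a neighbour of Foxl1, had 38, and both forkhead genes act in the gut mesenchyme. Bcl11b, a zinc finger factor of T cells and striatal neurons, had 35, Pou3f1, a POU factor of glia and neurons, had 34, and Gli2, an effector of Hedgehog signalling, had 33. A region lying between 2 listed genes counts for both.

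Fewer regions flanked the rest of the first 20 genes. Dlx2, a homeobox factor of GABAergic progenitors, flanked 29 regions, Gsx2, which acts upstream of it, flanked 23, and Lhx5 flanked 22. Pax2 and Sox1 flanked 23 each, Twist2 22, Msx1 and Uncx 21 each, Dlx4 20 and Alx4 19. Only 2 genes of the neuronal lists were among the first 20. They were Cadm1, a synaptic adhesion molecule, with 26 regions, and Grik3, a kainate receptor subunit, with 24. For Dlx2, a peak was present in 17, 13 and 13 regions in the WT cocaine lists, in 9, 2 and 8 in the WT saline lists, in 9 in the cKO cocaine list and in 9 and 2 in the cKO saline lists. The WT groups did not overlap at Dlx2, with cocaine higher, as at 10 of the 45 listed genes with 10 or more regions (22.2%), and the converse was found at 0 of the 45. As with the gaps, the WT cocaine lists held more regions in general, and these lists chose the regions. For Pou3f1 the WT cocaine lists gave 16, 19 and 7 and the WT saline lists 20, 10 and 11, so genes of this group did not share 1 order of the WT lists.

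Of the morphogens, Wnt11 flanked 17 regions, Bmp7 14 and Wnt4 9. These genes and Drd1, the dopamine receptor gene, were chosen after their counts were seen. Drd1 flanked 13 regions, the nearest 286 kb away, with a peak in 6, 8 and 5 of them in the WT cocaine lists and in 4, 3 and 2 in the WT saline lists. In the cKO lists used by the rule the counts were 7 for cocaine replicate 2 and 1 and 0 for saline replicates 2 and 3, and in the unused lists 0 for cocaine and 2 for saline. The WT groups did not overlap at Drd1, which was also 1 of those 10 genes. The WT cocaine lists held more regions in general, and these lists chose the regions. Whether the regions relate to Drd1 or to the coding gene on their other side was not tested.

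Being far from coding genes did not mean being far from every gene. The midpoint of 1500 regions (23.7%) lay in the body of a long non-coding RNA (lncRNA) gene, and such bodies took up 12.01% of the space. Within 2 kb of an end of a lncRNA gene lay 883 midpoints (13.9%), in 3.81% of the space, or 18.99 per Mb. This share was 12.9% for regions with 2 lists and 21.7% for regions with 5 or 6 lists. Pseudogene bodies held 0.600% of the midpoints and 1.67% of the space. When regions within 10 kb of any annotated gene were also left out, 3036 regions remained.

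Of the 134 regions with 6 lists, 47 overlapped a non-coding gene. The highest mean fold among these, 4.30, belonged to a 907 bp region over the transfer RNA gene n-TGgcc14 at chr1:171081505-171082411. Its folds were 3.81 and 4.04 in WT cocaine replicates 1 and 3, 4.23 and 4.04 in WT saline replicates 1 and 2, 4.37 in cKO cocaine replicate 2 and 5.30 in cKO saline replicate 3. A 2217 bp region at chr3:96412819-96415035 overlapped Terc, the RNA component of telomerase. It was called in 7 of the 9 lists at 3.43 to 4.59. A 3428 bp region at chr1:42711126-42714553 overlapped Pantr2, a lncRNA gene 10.9 kb from the POU homeobox gene Pou3f3, and was called in all 9 lists at 3.02 to 4.16 and in the unused lists at 3.88 and 9.86. These regions were present in both treatments and both genotypes.

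MicroRNA genes were overlapped by 5 regions. The most shared was a 3308 bp region over Mir193a at chr11:79711536-79714843, called in 8 of the 9 lists at 3.26 to 5.03 and in the unused lists at 4.51 and 5.62. A 1778 bp region over Mir9-3, a gene of the neural microRNA miR-9, lay at chr7:79505000-79506777, with folds of 2.99, 3.69 and 3.697 in the WT cocaine lists, 3.55 in WT saline replicate 1 and 4.16 in cKO saline replicate 3. A region over Mir129-2 and Mir129b at chr2:94241101-94241798 was called in WT saline replicates 1 and 3 (3.52 and 3.54) and cKO saline replicate 3 (3.77), in cKO saline replicate 1 (3.43), and in no cocaine list. The remaining regions covered Mir1a-1, of a muscle microRNA, called in WT cocaine replicates 1 and 2 (2.85 and 3.94) and in the unused cKO cocaine and cKO saline lists (6.03 and 3.51), and Mir182, a sensory neuron microRNA, called in the 3 WT cocaine lists, in WT saline replicate 1 and in cKO saline replicate 1.

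The widest regions with 6 lists were near the width limit. The widest, 4919 bp at chr2:170218335-170223253, lay 66.7 kb from Zfp217, a zinc finger repressor, and was called in all 9 lists at 3.28 to 4.28 and in the unused lists at 5.89 and 6.93. The next, 4888 bp at chr1:183041814-183046701, lay 39.6 kb from Disp1, needed to release Hedgehog ligands, and was called in all 9 lists at 3.57 to 4.11. A 4699 bp region at chr15:103119286-103123984, 29.3 kb from the DNA repair gene Smug1 and 82.4 kb from Hoxc4, was called in 8 lists at 3.09 to 4.105. A 4676 bp region at chr5:119461580-119466255, in the gap next to Tbx3, was called in all 9 lists at 3.03 to 4.11. A 4353 bp region at chr16:30006850-30011202, 54.2 kb from Hes1, was called in 8 lists at 3.31 to 4.52 and reached 7.02 and 12.4 in the unused lists. The unused lists gave 4.36 and 6.11 at the Hoxc4 region, 3.57 and 4.08 at the Tbx3 region, and 3.65 with no peak in cKO saline replicate 1 at the Disp1 region. Both unused lists were thus above the range of the other lists at 3 of these 5 regions, and at neither of the others.

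The highest mean folds belonged to short regions of another kind. The region with the highest, 8.60, was 113 bp wide, at chr8:123587505-123587617, and was called in WT saline replicate 2 (12.2) and cKO saline replicate 3 (5.01), and in the unused cKO cocaine and cKO saline lists (6.75 and 12.6). It was 1 of 5 regions within a stretch of 48 ribosomal RNA genes between Gas8 and Rhou (chr8:123538784-123622046), none of which it or the other 4 overlapped. The second of them, at chr8:123570577-123570695, had 5.88 and 8.24 in WT saline replicates 1 and 2 and 8.02 in cKO saline replicate 3, with 5.87 and 9.66 in the unused lists. The third, at chr8:123575453-123575678, had 5.97 and 5.28 in WT cocaine replicates 1 and 3, 5.69 and 9.82 in WT saline replicates 1 and 2, and 9.003 in cKO saline replicate 3, with 15.5 and 14.9 in the unused lists. The remaining pair had mean folds of 5.76 and 4.73. Whether repeated sequence had a part in these heights was not tested.

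Besides that stretch, the highest mean folds were 7.87 for a 105 bp region at chr6:3201434-3201538, called in WT saline replicates 1 and 2 (6.66 and 9.09), and 6.08 for a 492 bp region at chr3:8245948-8246439, called in the same lists (6.38 and 5.79). Both had no peak in the unused lists. A region at chr16:44633603-44633844 had a mean fold of 4.90. One at chr2:128321170-128321321 in Morrbid, a lncRNA gene that controls the cell death gene Bcl2l11, had 4.49, with 4.43 in WT saline replicate 3 and 4.56 in cKO saline replicate 2. The high-fold regions named here were narrow, at most 492 bp.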

How the data were processed

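H2Aub ChIPmentation was done on 11 libraries of pooled thalami, with 4 input libraries that the authors used as control and that were not analysed here. Per the methods and the processing notes of the submitters, reads were trimmed with Cutadapt, aligned to mm10 with Bowtie2 2.3.4.1 and filtered on a minimum mapping quality, and broad peaks were called with MACS2 2.1.1.20160309.3 against total input, 1 list per library without pooling of replicates. Each deposited list gives, per peak, a fold enrichment (a linear ratio over input), −log10 of the p-value, −log10 of the q-value, and a score that is the −log10 q times 10 without decimals. The highest q in any list was 0.0997. Read numbers per library are not given in the sources used here, so the depth of each is unknown.

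Peaks were merged and placed against RefSeq GRCm38.p6 genes, which have the coordinates of mm10 (20665 coding genes among 47042 genes on chromosomes 1 to 19, strand not given), with Python 3.11.15, numpy 2.4.6, pandas 2.3.3 and scipy 1.17.1; figures were drawn with matplotlib 3.10.9. The library was the replicate. Group differences were put to two-sided exact permutation tests at a threshold of 0.05, with Benjamini-Hochberg adjustment over 10 tests, of which those on the widths of the chosen regions are not reported as tests. The tests were checked on simulated data. The regions, gene lists and tests were chosen with earlier results of these data known. Because presence in the 9 lists chose the regions, that presence was not tested.

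The text names the 10 regions with the highest mean fold, the 10 widest with 6 lists, up to 10 each of those in all WT cocaine and no WT saline lists and the converse by mean fold, and the 10 with the highest smaller fold in the unused lists, or some of each. It also draws on the 10 fullest gaps, the microRNA genes, the non-coding genes overlapped with 6 lists, and up to 20 listed flanking genes. Alternatives changed the q threshold, the number of peaks per library, the distance, the genes kept away from, the joining of peaks and the libraries used. Sequences of the regions were not analysed here.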

Additional observations from a re-analysis of the deposited data

How the results depend on the processing

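The number of intergenic regions was 695 with peaks at q of at most 0.01, 1939 with 7235 peaks per library, 3119 beyond 50 kb from coding genes and 3036 beyond 10 kb from every gene, and 5065 to 6183 when each library was left out. The fold difference from regions inside genes kept its direction and an unadjusted p under 0.05 in all 19 alternatives (highest exact permutation p = 0.0156), where p-values were not adjusted. The fold difference from gene edges (log2) was -0.0022 at q of at most 0.05, 0.00553 at 0.01, 0.00272 with equal numbers of peaks, -0.00257 beyond 50 kb, -0.0019 with exactly 2 lists, and -0.0107 to -0.00837 without single libraries. The width difference from regions inside genes, a description, was -0.0739 at q of at most 0.05, -0.218 at 0.01, -0.126 with equal numbers of peaks, -0.0402 with gaps of up to 500 bp joined, 0.00258 with exactly 2 lists, and -0.074 to -0.0527 without single libraries. The width difference from gene edges was -0.507 at q of at most 0.01, -0.275 with equal numbers of peaks, -0.0474 beyond 50 kb, 0.0161 with exactly 2 lists and -0.192 to -0.161 without single libraries. The share found again in cKO cocaine replicate 1 was 34.2% at q of at most 0.01, 1.75% with equal numbers of peaks, which also shortens that list, 27.9% beyond every gene and 32.3% with gaps joined. In cKO saline replicate 1 it was 37.6%, 3.97% and 32.7% for the first, second and last of these. No background over all regions was counted for these shares. Developmental transcription factors flanked 24.9% at q of at most 0.01, 21.8% beyond 50 kb and 19.6 to 20.2% without single libraries. At q of at most 0.01, 28 regions (4.03%) had peaks in all WT cocaine and no WT saline lists, next to 3.97% over all regions of that setting. The converse held for 4 (0.576%), next to 0.305%. With equal numbers of peaks 31 (1.599%) had the first pattern, next to 1.99%. These alternatives for flanking genes and WT patterns were chosen after seeing the data. The intergenic share differences passed no test under any alternative, which designs with a lowest attainable p of 0.10 or 0.20 could not do. Genotype under cocaine was 5.50 points with equal numbers of peaks and 3.30 at q of at most 0.01, and genotype under saline 3.64 and 2.62. WT treatment was 1.63 with equal numbers of peaks, and cKO treatment 4.23 at q of at most 0.01. Without single libraries they ran from 0.974 to 5.04 points for WT treatment, -0.687 to 5.70 for cKO treatment, -1.83 to 4.56 for genotype under saline (-0.835 without WT saline replicate 2) and -0.804 to 1.83 for genotype under cocaine. Without both cKO replicates numbered 1, the genotype differences were -1.83 under saline and -0.405 under cocaine. With the replicate number as a block, cocaine minus saline was 3.35 in WT (exact permutation p = 0.50) and -0.687 in cKO, and cKO minus WT under cocaine was -0.804. The numbers were not taken as pairing the samples, since same-numbered WT libraries correlated at 0.00828 to 0.0182. The 2 same-numbered cKO pairs correlated at 0.563 (replicates 1, both of which stand apart) and 0.462, and cKO cocaine replicate 2 with cKO saline replicate 3 at 0.316. These are correlations of deviations from the group mean. The deviations of the 2 cKO cocaine libraries mirror each other, so the cKO values are not independent and do not show pairing. The WT fold and width differences of intergenic peaks ran from -0.138 to -0.0406 and from 0.236 to 0.561 without single libraries, and the correlation with list length from 0.763 to 0.860. That correlation was not run with equal numbers of peaks, and the composition of region sequences was not run. The cause of these changes was not tested. Unknown depth limits every count of peaks.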

Other observations

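Intergenic regions with 7 to 9 lists, left out by the rule, numbered 213, and 155 of them were narrower than 5000 bp. A developmental transcription factor flanked 72 of the 213 (33.8%), an adhesion or guidance gene 1, and a receptor, transporter or channel gene 0. The widest, 22790 bp at chr6:51167932-51190721 next to Npvf, a neuropeptide gene, had a mean fold of 4.81 and was covered in 9 lists. A region of 12363 bp at chr5:28116272-28128634 lay between Insig1 and the homeobox gene En2. On chromosome X, 11 intergenic regions met the limits of width and number of lists, among 48 regions of any place that did, from 477 peaks.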
